A study of Mus musculus with 6 samples.

Results

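The 10 genes described here code for transcription factors that give sensory neurons their identity: Isl1, Pou4f1, Pou4f2, Pou4f3, Runx1, Runx3, Shox2, Prdm12, Tlx3 and Drgx. They were chosen by name, out of 54242 gene symbols, without regard to their values; 9 were found by symbol, and Drgx under its older symbol, Prrxl1. RNA came from lumbar dorsal root ganglia at L4-6, which house the cell bodies of sensory neurons next to the spinal cord, of male C57bl/6 mice aged 8-10 weeks. The fed group (3 libraries) ate ad libitum, and the fasted group (3 libraries) followed 10 days of intermittent fasting; neither group carried a labelled genetic change. Ganglia of both groups were dissociated with enzymes and enriched for neurons on a BSA gradient, and the protocols place death after 24 hours without saying after what. No label says whether a library is 1 animal or a pool, so p-values reflect only how far these libraries differ among themselves, which may be technical. Values are TPM (transcripts per 1000000), which adjust for transcript length and keep no sequencing depth. The depth is therefore unknown, and no counting interval can be given.

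Sensory neurons of the ganglion arise from the neural crest and are sorted into classes by a cascade of DNA-binding proteins. Isl1, a LIM-homeodomain protein, and Pou4f1, a POU-domain protein also called Brn3a, act in nearly all of them and close the early programme of neuron birth. Prdm12, Tlx3, Drgx and Runx1 are tied to the neurons for pain, itch and temperature, whereas Runx3 and Shox2 belong to large-diameter neurons, Runx3 to muscle proprioceptors and Shox2 to touch receptors with the receptor TrkB. Many of these factors stay on in the adult, where they maintain the receptors and channels of each class.

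Runx1 and Runx3, relatives that share the Runt DNA-binding domain, each have 2 annotated start sites, and the deposited table separates the transcripts that begin there. The start regions are shown because the 2 starts are measured separately below. RefSeq's table for GRCm38.p6 held a window of 300 bases, 250 before to 50 after the start, for 9 of the 10 genes, 11 windows in all; Pou4f3 had no entry. The distal windows of Runx1 (GC content 45.0%) and Runx3 (63.7%) shared a stretch of 18 bases, in capitals here within 30 bases, which holds the Runt-domain motif AACCACA as a pair. Its first base lies 26 bases after RefSeq's start in Runx1 and at position -136 from it in Runx3. Both are given 5′ to 3′, Runx1 from the minus strand of chr16:92826025-92826054 and Runx3 from the plus strand of chr4:135120503-135120532.
Runx1 distal: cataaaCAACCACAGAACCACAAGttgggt
Runx3 distal: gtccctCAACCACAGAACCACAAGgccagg
The pair, spelled AACCACANAACCACA and searched on both strands, lay in 5 of 32851 windows of this length (0.0152%), those of Runx1, Runx2, Runx3, Gm16225 and Olfr24. A single AACCACA lay in 5.27% of windows, and among the other factors only in that of Drgx. Neither proximal window held it. Those are richer in G and C (69.0% for Runx1 and 77.3% for Runx3) and hold the CCAAT box, in capitals here on either strand (CCAAT or its reverse, ATTGG), which 37.4% of all windows contain. Both distal windows hold CCAAT boxes too. The bases shown end before the first annotated start, from the minus strand of chr16:92697330-92697579 and the plus strand of chr4:135152295-135152495.
Runx1 proximal: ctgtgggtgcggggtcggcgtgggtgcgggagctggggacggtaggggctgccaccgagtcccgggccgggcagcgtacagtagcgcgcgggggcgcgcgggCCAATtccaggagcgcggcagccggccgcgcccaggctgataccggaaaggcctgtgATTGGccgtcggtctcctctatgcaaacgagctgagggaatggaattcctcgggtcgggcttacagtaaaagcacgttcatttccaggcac
Runx3 proximal: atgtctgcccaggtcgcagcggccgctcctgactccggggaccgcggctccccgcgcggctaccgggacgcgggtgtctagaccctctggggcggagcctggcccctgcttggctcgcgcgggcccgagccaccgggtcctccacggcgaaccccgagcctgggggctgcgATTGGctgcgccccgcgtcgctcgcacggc
A match is a description of letters and not a binding site.

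All 10 factors were present in adult ganglia, each averaging at least 1 TPM, and their mean levels over the 6 libraries spanned 23.2-fold. Pou4f1 was the most abundant at 239 TPM, in the 95.1st percentile of the 15097 genes at or above 1 TPM. Prdm12 followed at 192 TPM, Tlx3 at 121 TPM, Drgx at 105 TPM and Isl1 at 79.2 TPM. The other 5 factors were lower, with Runx1 at 29.1 TPM, Pou4f3 at 24.1 TPM, Shox2 at 22.3 TPM, Runx3 at 10.4 TPM and Pou4f2 at 10.3 TPM. Of the 9 neighbouring pairs in this order, 6 had ranges over the 6 libraries that did not overlap. The ranges overlapped between Runx1 and Pou4f3, between Pou4f3 and Shox2, and between Runx3 and Pou4f2. Runx3 was above Pou4f2 in only 3 of 6 libraries, so these last 2 levels could not be ordered. In bulk RNA a high level in few cells and a low level in many cannot be told apart, nor can fewer cells of a type and less RNA per cell.

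**Figure D1:**
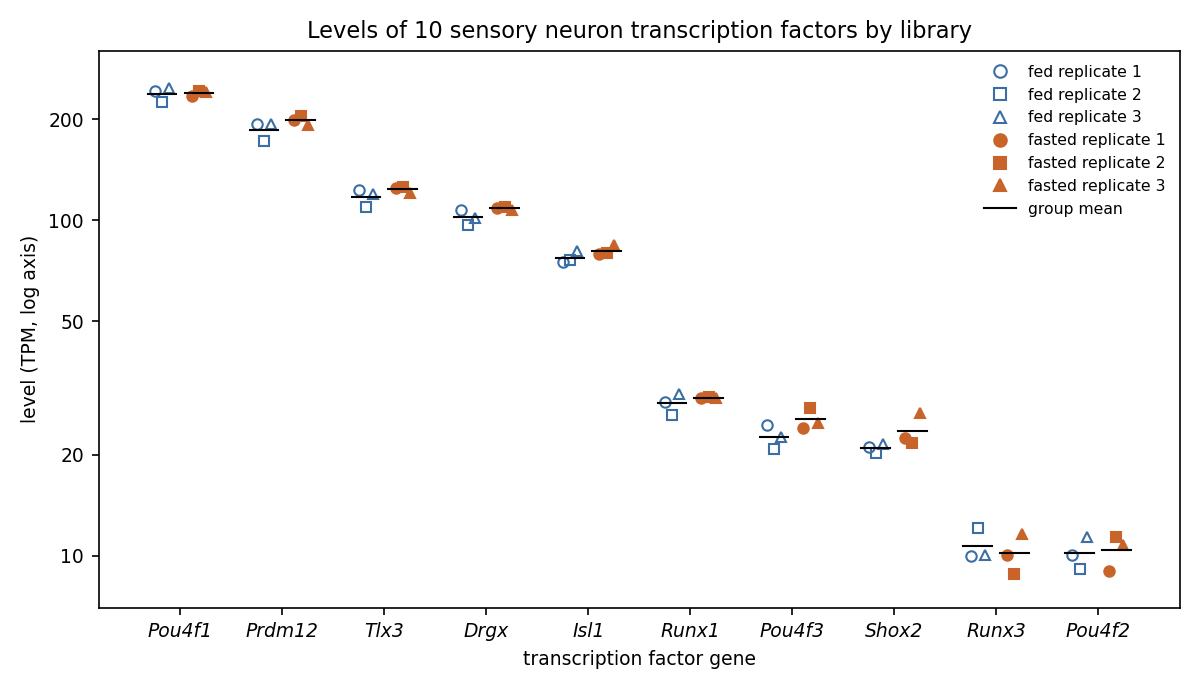
Level in TPM (log axis) of each transcription factor, ordered by mean, in the 3 fed libraries (open symbols) and the 3 fasted libraries (filled symbols); marker shape is the replicate number and the short line the group mean. The genes differ by up to 23.2-fold in mean level, while the diets lie close together for each gene, with the square of fed replicate 2 lowest for 7 of the 10.

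Fed replicate 2 stood apart before any comparison of diets. It held the lowest value of the 6 libraries for 7 factors (Pou4f1, Pou4f3, Runx1, Shox2, Prdm12, Tlx3 and Drgx) and the highest for Runx3. The 10 factors summed to 769 TPM there, against 835 and 840.2 TPM in the other fed libraries and 842 to 861 TPM in the fasted ones. Averaged over the 10, log2(TPM + 1) in this library deviated from the 6-library mean by -0.096, and over 16 pan-neuronal genes it deviated by -0.096 too. The 16 pan-neuronal genes summed to 21036 TPM in it and to 22486 to 24020 TPM in the others, and all 16 passed the limit of 1 TPM. A list of 10 skeletal muscle genes summed to 3848 TPM in fed replicate 2, to 463 and 578 TPM in the other fed libraries and to 263 to 521 TPM in the fasted ones. These sums include Pvalb, which proprioceptors also make, at 543 TPM in fed replicate 2 and 197 to 235 TPM in the others. Among marker lists of blood and vessel cells, those of macrophages, endothelium and erythrocytes had sums that lay apart between the diets. The lymphocyte and other leukocyte list overlapped, at 108 to 181 TPM in fed and 77.0 to 201 TPM in fasted libraries. Macrophage markers summed to 166 to 200 TPM under feeding and 121 to 141 TPM under fasting, with 13 of 13 lower in fasted. Endothelial markers summed to 157 to 191 and 127 to 142 TPM, with 10 of 10 lower, and erythrocyte genes to 1284 to 1564 and 1715 to 3277 TPM, with 5 of 5 higher. Satellite glia (6643 to 7400.2 against 6683 to 6949 TPM) and myelinating Schwann cells (7214 to 8068 against 7498 to 8326 TPM) overlapped. No gene of these marker lists passed after adjustment over all genes (limma, Benjamini-Hochberg), and the part of these cells in the results below was not tested except where stated.

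**Figure D2:**
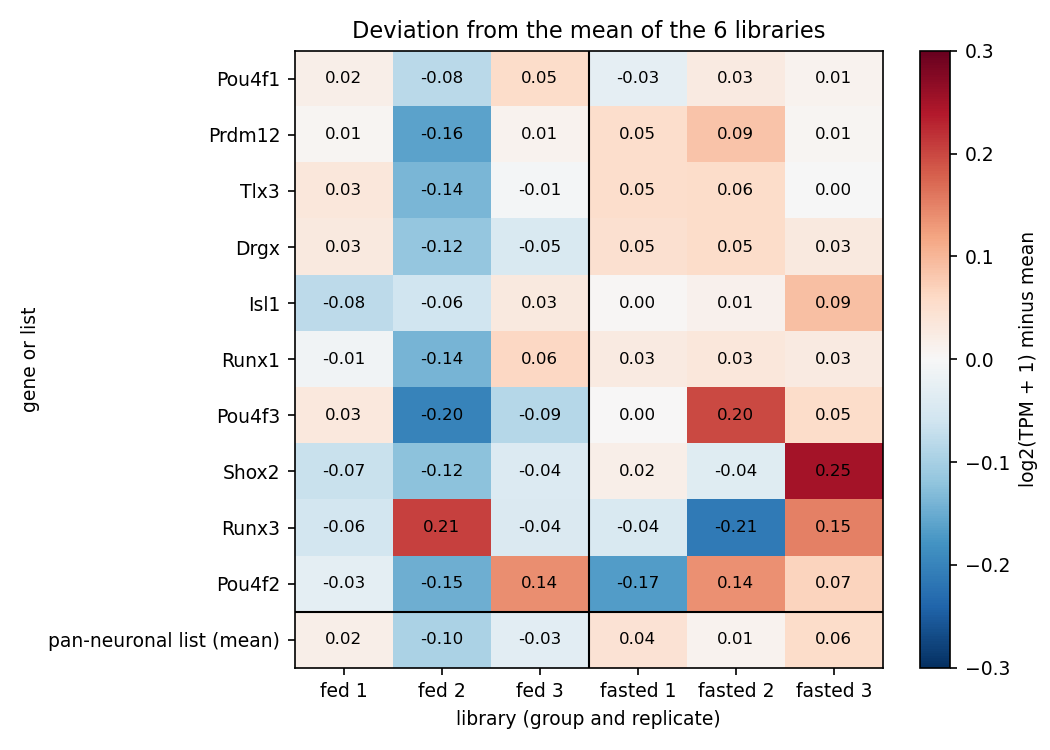
Deviation of log2(TPM + 1) from the gene's mean over the 6 libraries, for each factor (rows, ordered by level) and for the mean of 16 pan-neuronal genes (last row); columns are libraries, and the vertical line parts fed from fasted. In fed replicate 2, 9 of 10 factors lie below their own mean, Runx3 being the exception, and the pan-neuronal row lies at -0.096.

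The comparison of diets addresses whether 10 days of intermittent fasting moved these identity factors. None of the 10 passed a limma test adjusted over all 15097 genes, with adjusted p from 0.52 to 0.97, and 0 had an unadjusted p under 0.05, against 9.94% of all tested genes. Of all tested genes 1 passed (0.00662%), Gm23257, a predicted gene named here after its values were seen. Of the factors, 9 were higher in fasted libraries and 1, Runx3, was lower. The median log2 fold change of the 10 was 0.072, beside 0.031 for all tested genes, 62.5% of which were higher on TPM. Of the 16 pan-neuronal genes, 15 were higher and 1 lower, with a median of 0.065. The fasted values lay wholly above the fed ones for 2 factors, Drgx and Shox2, as they did for 12.7% of all tested genes; no factor lay wholly below, as 5.07% of genes did. On the TPM + 1 scale, the 95% intervals reached from a ratio of 0.79 for Runx3 to 1.27 for Pou4f3, or -0.34 to 0.35 in log2. These limits depend on the setting. Scaled to the pan-neuronal genes, the low end for Runx3 was -0.43 in log2. With the replicate number as a block, the high end for Pou4f3 was 0.39.

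The balance of directions changed with the scale. When each library was scaled to the geometric mean of the pan-neuronal genes, 4 factors were higher and 6 lower, the median was -0.00045, and 0 lay apart between diets (3.11% of genes lay wholly above and 13.1% wholly below on that scale). On that scale the median of all tested genes was -0.0365. Under median-of-ratios scaling 7 were higher and 3 lower, 0 lay apart (7.66% of genes lay wholly above), and the median was 0.041 against 0.0019 for all genes, of which 50.9% were higher. Without fed replicate 2, on TPM, 8 were higher and 2 lower, with a median of 0.030 against 0.020 for all genes. The split was also 8 and 2 without fasted replicate 2 and without fasted replicate 3, where the medians were 0.070 and 0.064.

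**Figure D3:**
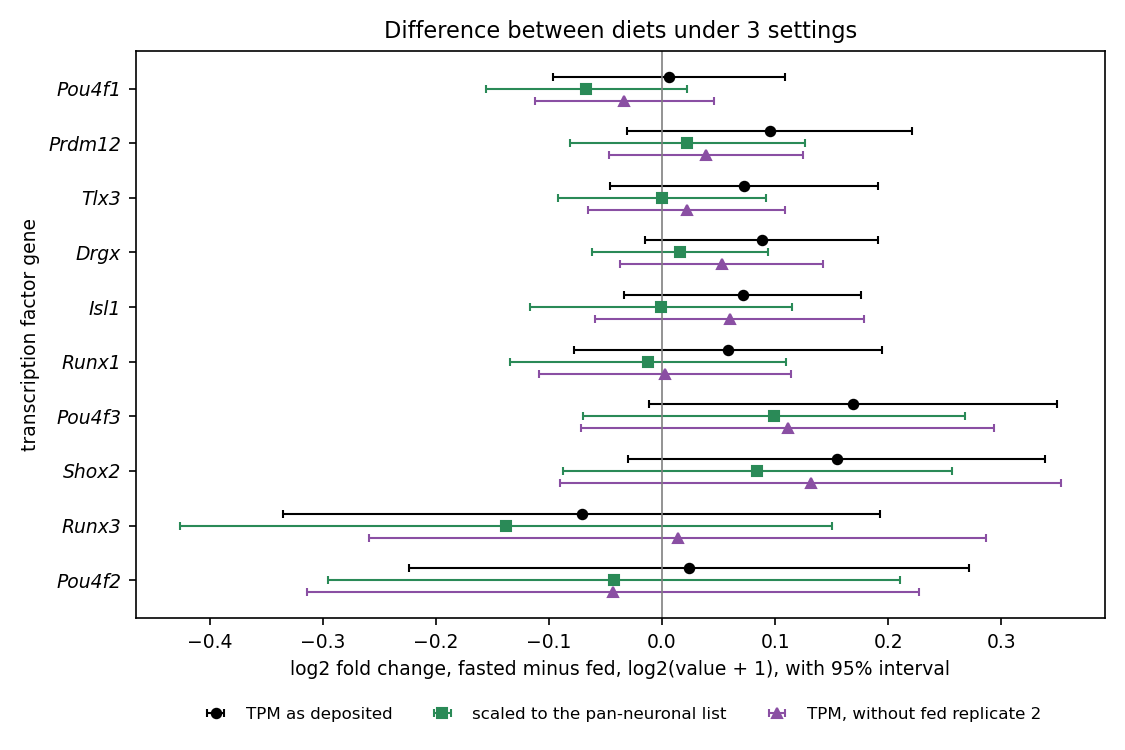
Log2 fold change (fasted minus fed, on log2(value + 1)) with its 95% interval from limma for each factor, on TPM (circles), after scaling to the pan-neuronal list (squares) and on TPM without fed replicate 2 (triangles). All 30 intervals include 0, and the pan-neuronal squares centre near 0 with 4 above and 6 below.

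Among the factors of nearly all sensory neurons, Isl1 (ENSMUSG00000042258, chromosome 13, 116298281 to 116309689, minus strand, GRCm38) lay at 74.98, 76.0 and 80.8 TPM under feeding and 79.4, 79.9 and 84.3 TPM under fasting. Fasted replicate 3 was the highest, and the diets overlapped through fed replicate 3. Isl1 had a log2 fold change of 0.071 (SE 0.045; limma, adjusted p = 0.57), which became -0.00086 after pan-neuronal scaling. Pou4f1 (ENSMUSG00000048349, chromosome 14, 104461676 to 104467999, minus strand) was at 242, 226 and 248 TPM under feeding and 234, 243 and 240.5 TPM under fasting. Here the highest and the lowest value were both from fed mice. Its log2 fold change of 0.0059 (SE 0.044; limma, adjusted p = 0.97) had a 95% interval from -0.097 to 0.11, and it was -0.067 after pan-neuronal scaling and -0.033 without fed replicate 2. On TPM the interval leaves room for a ratio of 0.94 to 1.08. After pan-neuronal scaling the interval ran from -0.16 to 0.022 in log2.

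The POU-domain relatives were less abundant. Pou4f3, best known for keeping hair cells of the inner ear alive (ENSMUSG00000024497, chromosome 18, 42394539 to 42397249, plus strand), was at 24.5, 20.7 and 22.5 TPM under feeding and 24.0, 27.6 and 24.9 TPM under fasting. Its fasted mean of 25.5 ± 1.88 TPM stood above the fed mean of 22.6 ± 1.90 TPM (SD, n = 3 each), and fed replicate 1 overlapped the lowest fasted library. This was the largest log2 fold change of the 10, 0.17 (SE 0.077; limma, adjusted p = 0.52), and it was 0.099 after pan-neuronal scaling and 0.11 without fed replicate 2. Pou4f2, known for its part in retinal ganglion cells (ENSMUSG00000031688, chromosome 8, 78433010 to 78436645, minus strand), was at 10.0, 9.16 and 11.4 TPM under feeding and 9.02, 11.4 and 10.8 TPM under fasting. Its values were mixed between the diets, with a log2 fold change of 0.024 (SE 0.11; limma, adjusted p = 0.94).

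Prdm12, a zinc-finger protein with a PR domain that pain-sensing neurons need to form (ENSMUSG00000079466, chromosome 2, 31640037 to 31655795, plus strand), was at 193, 172 and 194 TPM in fed libraries. In fasted libraries it was at 199, 204 and 193 TPM. The fed mean was held down by replicate 2, and fasted replicate 3 lay below fed replicates 1 and 3. Its log2 fold change was 0.095 (SE 0.054; limma, adjusted p = 0.54), and it was 0.022 after pan-neuronal scaling and 0.039 without fed replicate 2. Tlx3, a homeobox factor of nociceptors and of excitatory dorsal horn neurons (ENSMUSG00000040610, chromosome 11, 33200752 to 33203589, minus strand), lay at 123, 109 and 120.0 TPM under feeding and 125, 125 and 120.5 TPM under fasting. It had a log2 fold change of 0.072 (SE 0.051; limma, adjusted p = 0.61), which became -3.9e-05 after pan-neuronal scaling and 0.022 without fed replicate 2.

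Drgx, a paired-type homeodomain protein needed for the wiring of pain afferents (ENSMUSG00000041730, chromosome 14, 32599407 to 32649246, plus strand), was at 107.4, 97.1 and 102 TPM in fed libraries. The fasted libraries lay at 109, 109 and 107.5 TPM, all above the fed ones, by a margin of less than 1 TPM between fasted replicate 3 and fed replicate 1. The log2 fold change was 0.088 (SE 0.044; limma, adjusted p = 0.52), and it was 0.016 after pan-neuronal scaling and 0.053 without fed replicate 2. Tlx3 and Drgx are also made in the dorsal horn of the spinal cord. Of 12 dorsal horn and central glia markers, 9 were below 1 TPM and 3 reached it. Among the 9, Lbx1 and Slc32a1, a transporter of inhibitory neurons, averaged 0.012 and 0.0023 TPM. These low values do not stand for the whole list, given the 3 markers that reached 1 TPM. For each of those 3 the diets overlapped (limma, smallest adjusted p = 0.68). The 12 summed to 8.58 to 10.3 TPM in fed and 8.71 to 10.6 TPM in fasted libraries. The part of dorsal horn tissue in the Tlx3 and Drgx levels was not tested.

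Runx1, which drives the non-peptidergic class of pain and itch neurons (ENSMUSG00000022952, chromosome 16, 92601466 to 92826149, minus strand), was at 28.8, 26.3 and 30.3 TPM in fed libraries. The fasted libraries were close together at 29.6, 29.7 and 29.6 TPM, inside the fed range. The log2 fold change was 0.058 (SE 0.058; limma, adjusted p = 0.71), and it was -0.013 after pan-neuronal scaling and 0.0029 without fed replicate 2. Runx1 is also a factor of blood-forming and immune cells, and the macrophage markers given above had lower sums in the fasted libraries; their part in the Runx1 level was not tested. An antisense gene, Gm26626, overlaps Runx1, and antisense genes overlap Runx3 (Gm16224) and Prdm12 (Gm13425), while Rsrc1 overlaps Shox2 on the opposite strand. The kit marks strand, but no source used here states whether the quantification used it.

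The factors of large-diameter neurons were near the low end. Runx3 (ENSMUSG00000070691, chromosome 4, 135120652 to 135177990, plus strand) lay at 9.96, 12.1 and 10.1 TPM under feeding and 10.0, 8.84 and 11.6 TPM under fasting. It was the only factor with a lower fasted mean, at a log2 fold change of -0.071 (SE 0.11; limma, adjusted p = 0.82). The direction did not hold without fed replicate 2 (log2 fold change 0.014) or without fasted replicate 2 (0.017). In fed replicate 2, 1 processed transcript of 227 bases stood at 2.63 TPM, and it was listed at 0 in the other libraries. Summed over coding transcripts alone, Runx3 was at 9.56, 8.33 and 9.32 TPM under feeding and 9.65, 8.19 and 9.97 TPM under fasting, a log2 fold change of 0.026. Lymphocytes make Runx3 too, and markers of T and B cells (Cd3e, Cd3d, Cd3g, Cd8a and Ms4a1) averaged between 0.048 and 0.27 TPM. They belong to a list of 15 lymphocyte and other leukocyte genes, of which 6 reached 1 TPM; these 6 had lower means in fasted libraries, 2 of them without overlap, and 0 passed. The whole list summed to 108 to 181 TPM in fed and 77.0 to 201 TPM in fasted libraries, and its part in the Runx3 level was not tested. Shox2 (ENSMUSG00000027833, chromosome 3, 66971727 to 66981771, minus strand) was at 21.1, 20.3 and 21.5 TPM under feeding and 22.5, 21.6 and 26.6 TPM under fasting. The groups did not overlap, though fasted replicate 2 and fed replicate 3 were almost level, and fasted replicate 3 stood well above the rest. The log2 fold change was 0.15 (SE 0.079; limma, adjusted p = 0.53), and it was 0.084 after pan-neuronal scaling and 0.068 without fasted replicate 3.

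The 35 transcript rows of the 10 genes were examined next. Of these, 4 were at 0 in every library and 20 averaged at least 1 TPM. Tested among 33197 transcripts, 0 of the 20 passed (0.0271% of all did), with 14 higher and 6 lower in fasted libraries (limma, smallest adjusted p = 0.67). Fasted libraries lay wholly above fed ones for 3 of them, against 9.38% of all transcripts (6.51% under median-of-ratios scaling), and wholly below for 0, against 4.98%; 1 had an unadjusted p under 0.05, against 7.21%. That one was the main coding transcript of Isl1, at 67.5, 68.2 and 70.4 TPM under feeding and 74.2, 72.1 and 75.7 TPM under fasting (log2 fold change 0.11, SE 0.037; limma, adjusted p = 0.67). With the non-coding rows of Isl1 left out, the gene's sum showed the same separation, at 71.6 to 75.1 against 78.4 to 79.1 TPM (limma, adjusted p = 0.41). The transcript from the distal start of Runx1 was the second, at 15.5, 15.9 and 17.0 TPM under feeding and 17.4, 17.7 and 18.5 TPM under fasting (log2 fold change 0.14, SE 0.059; limma, adjusted p = 0.67). The longest abundant transcript of Drgx was the third, at 85.9, 75.2 and 80.3 TPM against 86.2, 89.8 and 86.1 TPM (log2 fold change 0.12, SE 0.055; limma, adjusted p = 0.68). None of these separations held up against the number of transcripts tested.

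Shares of a gene's TPM do not depend on how a library is scaled. Transcripts from the distal start made up 58.6% of Runx1 and 67.2% of Runx3 on average, and those from the proximal start 40.0% and 21.4%. The distal share of Runx1 was 53.9%, 60.4% and 56.1% in fed and 58.9%, 59.7% and 62.5% in fasted libraries. The difference of 3.54 percentage points lay within the overlap of the groups (exact two-sided permutation test, p = 0.3, adjusted p = 0.60). The proximal Runx1 transcript has only 3 bases that occur in no other transcript of the gene, so its level rests on how reads were divided among overlapping transcripts. In Runx3 the distal share was 54.1% in fed replicate 2 and 64.5% to 73.3% elsewhere.

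More than 50% of the Pou4f1 TPM was assigned to a transcript without a coding sequence. This processed transcript of 799 bases and 2 exons (chromosome 14, 104463973 to 104465365), of which 227 bases are in no other Pou4f1 transcript, took 52.3%, 53.7% and 53.6% of the gene's TPM in fed and 52.2%, 53.3% and 51.7% in fasted libraries. TPM adjust for length, and the coding transcript has 4445 bases, so these are not shares of the reads. The remaining bases are common to both transcripts, so each level rests in part on how reads were divided between them. The coding transcript alone was at 115, 105 and 115 TPM under feeding and 112, 114 and 116 TPM under fasting. Counted by coding transcripts, Pou4f1 averaged 112 and 114 TPM in the 2 diets. Prdm12 at 186 and 199 TPM would then lead the order, and Tlx3 at 118 and 124 TPM would also lie above Pou4f1. That order depends on the same division of reads.

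Of 14 shares tested in 6 genes, 1 separated the diets. Shares were not computed for other genes, so how often a share separates the diets in general is not known here. The Shox2 transcript with the longer coding sequence (993 bases, against 719 in the most abundant one) took 21.9%, 23.4% and 20.7% of the gene in fed and 18.3%, 19.0% and 18.7% in fasted libraries. The difference of -3.36 percentage points had an exact two-sided permutation p = 0.1, the smallest that 3 against 3 libraries allow, and an adjusted p = 0.56 over the 14 shares. Its TPM overlapped between diets, at 4.63, 4.75 and 4.46 against 4.11, 4.10 and 4.97. Drgx drew 79.6% of its TPM from a transcript of 2985 bases and 17.1% from one of 2371 bases, both with 789 coding bases. Isl1 drew 90.1% from its main transcript, and Prdm12, Tlx3 and Pou4f2 were each listed with 1 transcript.

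**Figure D4:**
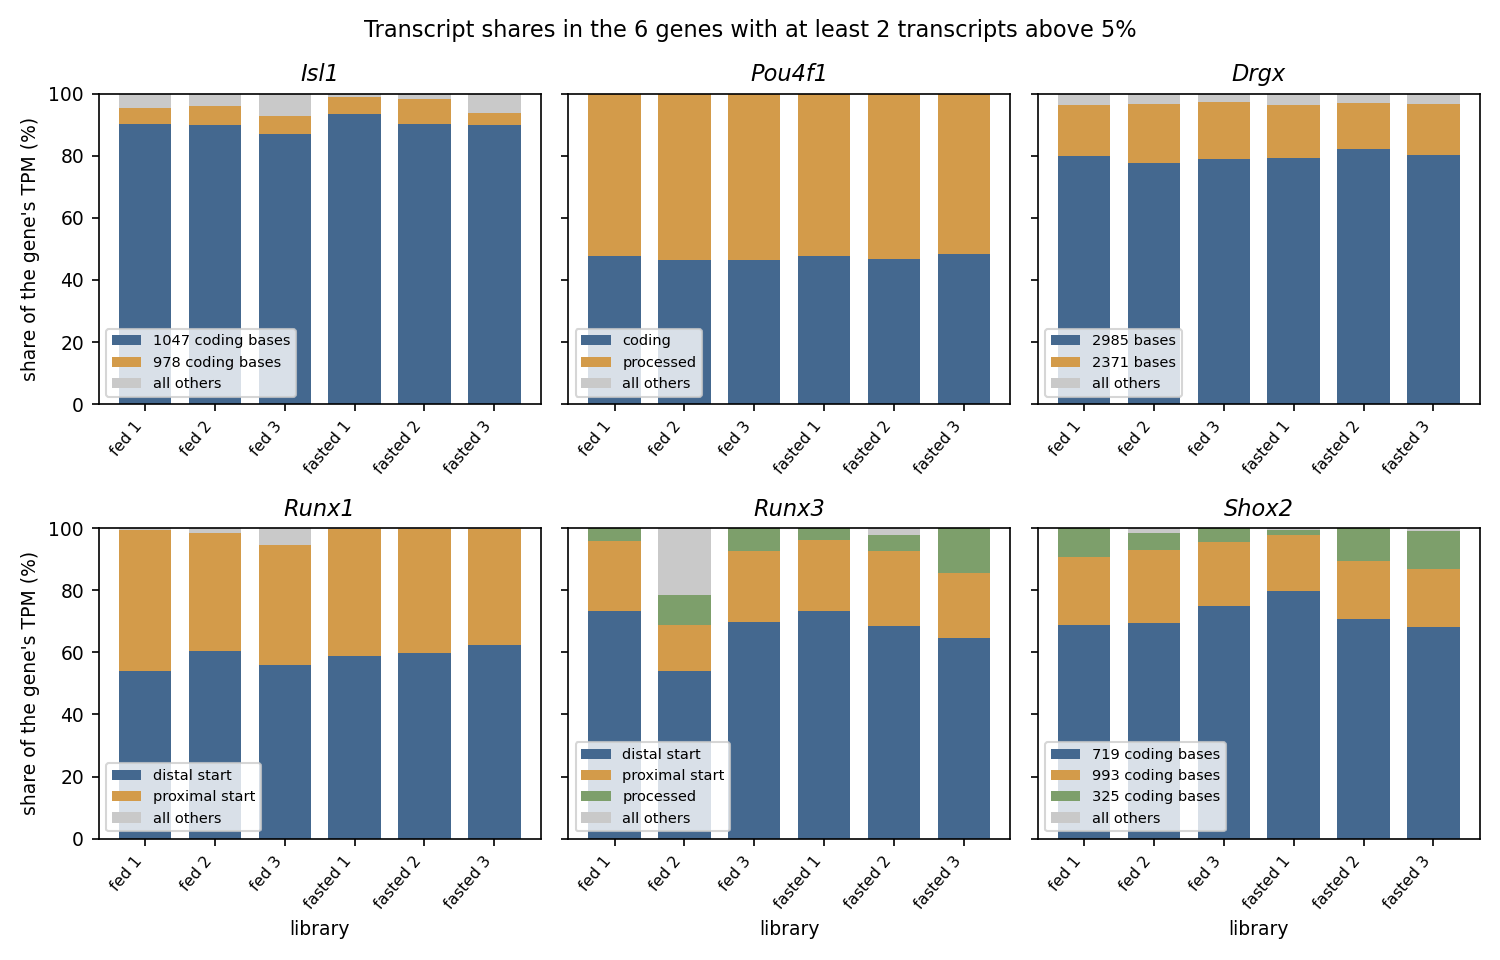
Share of each gene's TPM (percent, bars from 0 to 100) by transcript in the 6 libraries, for the 6 factors with at least 2 transcripts above 5%; grey is the sum of all other transcripts. Runx1 keeps a distal majority of 53.9% to 62.5% in every library, Pou4f1 is split near the middle, and Runx3 in fed replicate 2 carries a larger grey block than any other library.

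Ratios between factors within a library, taken on TPM + 1, depend little on the library's scale. The log2 ratio of Prdm12 to Tlx3 was 0.66 ± 0.025 in fed and 0.68 ± 0.016 in fasted libraries, and that of Drgx to Tlx3 was -0.20 ± 0.031 and -0.19 ± 0.020 (SD, n = 3 each). These 3 nociceptor factors thus kept their proportions to within a few hundredths on the log2 scale, from 0.64 to 0.70 and from -0.23 to -0.16 over the 6 libraries. Isl1 to Pou4f1 was -1.61 ± 0.060 in fed and -1.55 ± 0.047 in fasted libraries. Runx1 to Runx3 pairs a factor of non-peptidergic nociceptors with one of proprioceptors. This ratio was more variable at 1.33 ± 0.24 and 1.46 ± 0.18, and the difference turned from 0.13 to -0.011 without fed replicate 2. Shox2 to Runx3 was 1.01, 0.70 and 1.03 in fed and 1.09, 1.2 and 1.12 in fasted libraries, apart by 0.23 (exact two-sided permutation p = 0.1, adjusted p = 0.50 over the 5 ratios). The lowest value was again fed replicate 2, without which the difference was 0.12. In that library Runx3 was at 12.1 TPM over all its transcripts and at 8.33 TPM over the coding ones alone. Both ratios to Runx3 use all transcripts, and ratios over coding transcripts were not computed. For the other 4 ratios the exact two-sided permutation p lay between 0.2 and 0.6.

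RNA of genes for proteins that work with these factors was measured too. All 14 partner genes were at or above 1 TPM, 10 higher and 4 lower in fasted libraries, with 0 passing after adjustment (limma, smallest adjusted p = 0.42) and a median log2 fold change of 0.032, beside 0.031 for all genes. Cbfb, the subunit that Runx proteins bind, was at 232, 224 and 238 TPM under feeding and 242, 243 and 260.5 TPM under fasting, well above Runx1 and Runx3 themselves (log2 fold change 0.10, SE 0.044; limma, adjusted p = 0.51). Ldb1, the bridge protein of LIM-homeodomain factors, was at 51.9, 52.6 and 55.8 against 56.5, 58.3 and 57.1 TPM. Tle3, a Groucho corepressor of Runx proteins, was at 13.4, 13.2 and 14.4 TPM under feeding and 18.6, 15.9 and 16.6 TPM under fasting (log2 fold change 0.30, SE 0.071; limma, adjusted p = 0.42). The histone methyltransferase gene Ehmt2 was at 40.5 ± 0.92 against 38.2 ± 0.94 TPM (SD, n = 3 each). Lmo2, a LIM-only gene of blood and vessel cells, was at 13.96, 15.2 and 12.1 against 8.71, 10.8 and 11.9 TPM. Endothelial markers were lower in the same libraries, and their part in the Lmo2 values was not tested.

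Of 38 other transcription factors of sensory neuron development, 30 reached the limit of 1 TPM. Genes of the birth of neurons were near the floor, with Neurog1 at 0.24, Neurog2 at 0.072 and Neurod1 at 0.55 TPM on average. Among the 30, 20 were higher and 10 lower in fasted libraries, the median was 0.0998, beside 0.031 for all genes, and 0 passed (limma, smallest adjusted p = 0.42); fasted values lay wholly above for 8 and wholly below for 2, against 12.7% and 5.07% of all tested genes. Foxs1, a forkhead gene, was at 3.87, 3.41 and 3.16 against 2.31, 2.30 and 2.39 TPM, and Ebf2 at 3.60, 3.90 and 3.48 against 2.45, 2.38 and 2.84 TPM. Casz1, a zinc-finger gene, was at 31.4, 28.5 and 34.2 against 37.3, 34.4 and 36.2 TPM. Klf7, a Krüppel-like factor, was at 96.7, 94.7 and 101 against 104, 106 and 104 TPM (log2 fold change 0.10, SE 0.037; limma, adjusted p = 0.49). Etv5 was at 57.8 ± 7.12 against 47.8 ± 2.64 TPM (SD, n = 3 each).

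Genes known to depend on Runx1 showed no common direction, with 7 higher and 7 lower of 14, a median of 0.0042 and 0 passing (limma, smallest adjusted p = 0.42). The Mas-related receptor gene Mrgprb5 was at 8.85, 7.03 and 8.36 TPM under feeding and 10.7, 11.7 and 10.0 TPM under fasting (log2 fold change 0.38, SE 0.097; limma, adjusted p = 0.42). The cold channel gene Trpm8 was at 23.5, 19.9 and 23.2 against 25.4, 25.8 and 26.8 TPM (0.22, SE 0.070; limma, adjusted p = 0.48). In both genes the fasted libraries lay above all fed ones, with fed replicate 2 lowest; they were 2 of the 14, beside 12.7% of all tested genes. Mrgprd, which marks most non-peptidergic neurons, was at 118 ± 11.4 against 125 ± 5.39 TPM, Cd55 at 464 ± 47.6 against 502 ± 8.84 TPM and Trpa1 at 33.4 ± 2.99 against 31.1 ± 1.53 TPM (SD, n = 3 each). Genes of peptidergic nociceptors were 7 higher and 5 lower of 12, with a median of 0.044 and 0 passing (limma, smallest adjusted p = 0.48). Among them Gfra3, a receptor for artemin, was at 57.2 ± 2.63 against 63.7 ± 2.41 TPM, and Calcb, a CGRP gene, at 262 ± 22.3 against 233 ± 5.62 TPM. Nppb was at 21.2 ± 1.05 against 18.1 ± 2.44 TPM and Calca at 3035 ± 419.6 against 2715 ± 92.6 TPM (SD, n = 3 each).

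Genes of large-diameter neurons, the classes of Runx3 and Shox2, were 11 higher and 3 lower of 14, with a median of 0.058 and 0 passing (limma, smallest adjusted p = 0.50). Calb1, for the calcium buffer calbindin, was at 36.3, 28.5 and 38.8 against 41.9, 38.98 and 47.6 TPM, and the vesicular glutamate transporter gene Slc17a7 at 195 ± 15.4 against 214 ± 13.04 TPM. Scn1a was at 40.4 ± 2.81 against 45.3 ± 4.39 TPM and Gfra1 at 105 ± 4.61 against 99.2 ± 2.93 TPM (SD, n = 3 each). Pvalb, a marker of proprioceptors that fast muscle also makes, was at 215, 543 and 230.3 TPM under feeding and 201, 197 and 235 TPM under fasting. Its one high value lay in fed replicate 2, the library with the highest sum of the 10 skeletal muscle genes. Pvalb is itself among those 10, so the sum is not independent of it.

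For each factor up to 2 named genes of at least 5 TPM with the most similar course over the 6 libraries were sought among 10926 genes, by Pearson's r of log2(TPM + 1). With 6 points and so many candidates, every search returns values near 1, so these are descriptions. Tlx3 was most like Ldb2 (r = 0.99), the second bridge protein of LIM factors, at 104, 92.0 and 102 TPM under feeding and 106, 107 and 103 TPM under fasting, and like Hsp90ab1. Prdm12 was most like Ppp2r2c and Dcaf7, Drgx like Mink1 and Shisal1, Runx1 like Nfs1 and Syt3, and Pou4f1 like Cd82 and Crim1. In these genes, as in those 5 factors, fed replicate 2 was the lowest library. Isl1 was most like Vwa8 and Ncoa2, Pou4f2 like Opn3, Pou4f3 like Clcn7 and Dtwd1, Shox2 like Gpatch2l and Fstl5, and Runx3 like Trak2 and Aebp2, with r from 0.97 to 1.00 over the pairs named.

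The factors differed in how far replicates spread. The spread within diets (residual SD of log2(TPM + 1)) had a median of 0.073 over the 10 factors and 0.087 over all tested genes, and 6 of the 10 were below that median. Among all tested genes Runx3 was at the 81.2nd percentile of this spread, Pou4f2 at the 78.2nd, Shox2 at the 64.1st and Pou4f3 at the 62.9th. The coefficient of variation over the 6 libraries ran from 3.29% for Pou4f1 to 11.7% for Runx3.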

How the data were processed

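The deposited table gives TPM per transcript for 6 libraries (140992 rows), made by the authors; each library sums to 1000000. The submitters' processing notes name Salmon 1.6.0, DESeq2 1.34.0, Trim Galore 0.6.6 and FastQC 0.11.9, and the builds GRCm38 and mm10; roles, order and annotation release are not stated there. TPM are shares, so no count test was run. TPM were summed per gene symbol, and the 15097 genes averaging 1 TPM or more were tested as log2(TPM + 1), a scale that understates changes of low genes, with limma 3.58.1 in R 4.3.3 (diet as sole term, trended empirical Bayes, two-sided, Benjamini-Hochberg, threshold 0.05). Transcripts were tested alike; shares and ratios by exact permutation tests. Alternatives were other pseudocounts, filters, scalings and limma settings, a replicate block, and leaving out each library. The code was tested on simulated data. Coordinates and transcript types came from GENCODE M21 (GRCm38), holding 98.7% of the transcripts. Named beyond the 10 factors were up to 5 genes of each list with the smallest p and up to 2 most similar genes per factor, a few of which are not reported here; Gm23257, Neurog1, Neurog2, Neurod1 and the cell markers fall outside this rule. The factors, lists and tests were chosen with earlier results of these data known.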

Additional observations from a re-analysis of the deposited data

How the results depend on the processing

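Depth is unknown, which limits all low values, and 3 libraries per diet limit every test; 0 factors passed under any alternative run. Of 200 alternative values for the 10 factors, 22 changed sign, in 6 factors, and the smallest adjusted p was 0.41 (limma); Pou4f3, Shox2, Prdm12 and Drgx kept their direction. Pan-neuronal scaling gave -0.00086 for Isl1, -0.067 for Pou4f1, -0.043 for Pou4f2, -0.013 for Runx1 and -3.9e-05 for Tlx3. Pou4f1 was -0.024 under TMM-type scaling, -0.026 under median-of-ratios, -0.030 under quantile scaling, -0.027 without mitochondrial genes and -0.011 with array weights; Pou4f2 was -0.0035 (TMM-type), -0.0049 (median-of-ratios), -0.0060 (without mitochondrial genes) and -0.018 (array weights). Runx3 was 0.026 over coding transcripts alone, which was added after the data were seen. With 1 library left out, Pou4f1 ran from -0.033 to 0.034, Pou4f2 from -0.043 to 0.11 and Runx3 from -0.16 to 0.017.

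Of transcripts, median-of-ratios scaling turned the shorter coding one of Isl1 (-0.0073), the coding one of Pou4f1 (-0.0016) and the proximal one of Runx1 (-0.0094). With 1 library left out these ran from -0.19 to 0.18, -0.016 to 0.054 and -0.076 to 0.10, the processed one of Pou4f1 from -0.048 to 0.018, the distal one of Runx3 from -0.050 to 0.086 and the shortest of Shox2 from -0.12 to 0.70. Shares in percentage points ran from -2.49 to 1.21 (Runx1, proximal), -2.66 to 6.86 (Runx3, distal), -0.19 to 4.02 (Runx3, proximal), -2.54 to 2.69 (Runx3, processed), -1.12 to 0.85 (Isl1, shorter), -1.80 to 3.99 (Shox2, main) and -0.33 to 5.0 (Shox2, shortest). Ratios ran from -0.011 to 0.22 (Runx1 to Runx3) and -0.00035 to 0.031 (Drgx to Tlx3).

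Of all genes, 1 passed on TPM, 2 with a pseudocount of 0.1 or 0.5, 0 without a filter (where 2083 had an unadjusted p under 0.05), 0 over coding transcripts and 1 to 6 with 1 library left out (6 without fed replicate 3, 4 without fasted replicate 3, 3 without fed replicate 1, 2 without fed replicate 2 or fasted replicate 1). Of all transcripts 9 passed, and 5 to 14 with 1 left out (14 without fasted replicate 2, 5 without fed or fasted replicate 1). Replicate numbers are shared by the diets, but no label ties them to a batch, and same-numbered libraries deviated together only weakly (r = 0.093, 0.11 and 0.066 across genes), each nonetheless correlating best with its own number. With the replicate number as a block, 0 transcripts and 1 gene passed, and the smallest adjusted p of a factor was 0.44 (limma). The causes of these changes were not tested.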
